A study of Sus scrofa with 6 samples.

Results

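Pig induced pluripotent stem (iPS) cell lines labelled positive for the surface antigens SSEA3 and SSEA4, but not for SSEA1, were compared with pig embryo fibroblasts. Its samples were picked by their labels and are 3 of the 6 arrays of the series: the lines iPF4-2 and iPSCs-w, and the fibroblast culture PEF. The other 3 arrays were an amniotic fluid stem cell culture, PAFSC, and the iPS lines PS24, labelled positive for SSEA1, SSEA3 and SSEA4, and 30AC5, labelled positive for SSEA1. The labels call PEF and PAFSC somatic and the 4 iPS lines pluripotent. Total RNA of each sample was hybridised to a single Pig Genome Array from Affymetrix. The series set pig iPS lines of one laboratory beside lines of others that differ in antigens and developmental capacity, but the origin of each line is not stated. Nor do the labels give strain, age, reprogramming factors, vector or passage, and each line is 1 sample with no repeat culture. Cells grew in DMEM with fetal bovine serum. The iPS lines were kept on growth-arrested mouse embryo fibroblasts, and a part of mouse feeder RNA in their values was not tested.

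Reprogramming turns a differentiated cell into one that can form all tissues of the body. Fibroblasts are mesenchymal cells: they lie single in a matrix that they secrete and pull on it with actin fibres. Pluripotent cells grow as epithelial colonies joined by E-cadherin, divide with few brakes, and depend on transcription factors such as OCT4, the product of POU5F1. SSEA1, SSEA3 and SSEA4 are glycan epitopes that mark pluripotent cells of different species and states.

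Every value is a log2 value relative to a zero of its own probe set, so a gene can be followed from array to array while the levels of different genes cannot be compared. The values of a gene's probe sets were averaged, and a probe set without a single gene symbol stood alone, which gave 20631 features, 6765 of them genes with a symbol. Array medians were -0.06 for PEF, 0.02 for iPF4-2 and 0.01 for iPSCs-w, and the SDs over probe sets were 0.809, 0.610 and 0.730. The PAFSC array stood apart with an SD of 2.01 and was not used in any test. Over 9 probe sets of the bioB hybridisation control, the mean was -2.93 in iPSCs-w and lay between -0.17 and 2.05 on the other 5 arrays, while for another such control, cre, it was -0.12 in iPSCs-w and 0.02 in PEF. In 3 control genes, 5′ probe sets stood above 3′ probe sets by 0.04 in PEF, -0.03 in iPF4-2 and 0.09 in iPSCs-w, against -1.90 in PS24. Their part in the results was not tested.

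Both lines differed from PEF in the same direction for most features. They lay on the same side of PEF for 9499 features above (46.0%) and 6326 below (30.7%), and on opposite sides for 4806 (23.3%). At least 1 log2 unit separated both lines from PEF for 1317 features above (6.38%) and 1699 below (8.24%). Of genes with a symbol these were 519 and 570. Large differences lay mostly below PEF: both lines were at least 4 log2 units lower for 125 features and at least 4 higher for 39. Since both differences share the PEF array, these counts describe 3 arrays and are not a test. The 2 lines themselves differed by a median of 0.33 per feature, and by 1 log2 unit or more for 2066 features, or 10.01%.

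A moderated linear model (limma) took its measure of spread from the differences between the 2 lines and between PS24 and 30AC5, and assumed that the lone PEF array varies like the lines. At an adjusted p under 0.05 it called 84 features higher (0.407%) and 255 lower (1.24%), among them 29 and 87 genes with a symbol, and 3647 features had an unadjusted p under 0.05. All called features differed by at least 2.15 log2 units. The calls rest on very few arrays: limma called 0 features when any 1 of the 4 iPS arrays was left out, 0 with PEF and the 2 lines alone (unadjusted 1601 higher and 1897 lower) and 0 after quantile normalization (unadjusted 1456 and 1701), each with a smallest adjusted p between 0.0544 and 0.0866. Leaving out PS24 or 30AC5 is the same fit against PEF as PEF and the 2 lines alone, since a lone SSEA1-carrying array adds no spread. These are therefore not separate checks. An exact permutation test of 2 samples against 1 cannot give a p below 1 in 3. Below, "rose" and "fell" refer to the limma call.

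**Figure D1:**
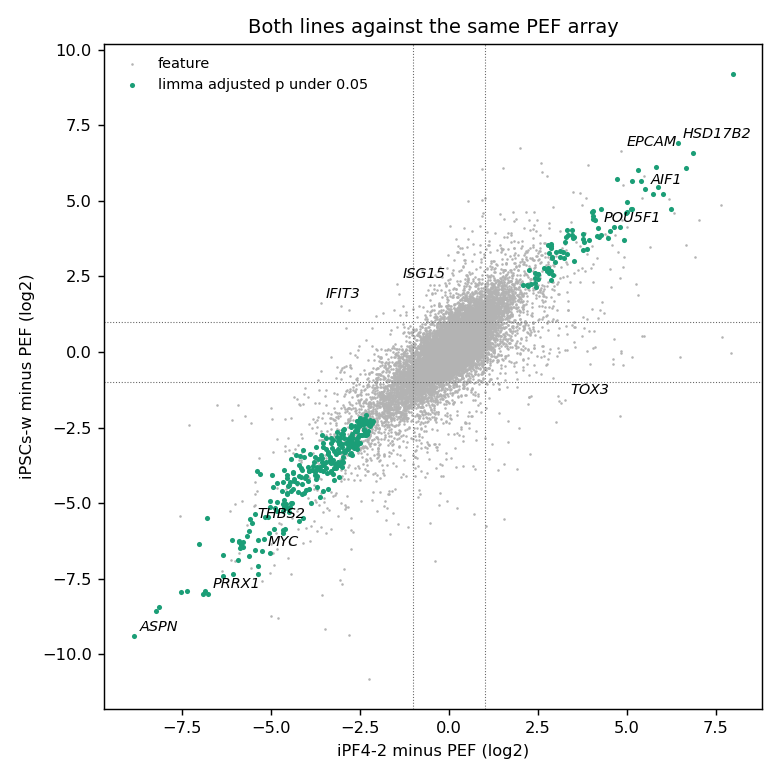
Difference of iPF4-2 from PEF (horizontal, log2) and of iPSCs-w from PEF (vertical, log2) for 20631 features, with limma calls in green and dotted lines at 1 log2 unit. Called features lie along the diagonal, where the lines are alike, and IFIT3, ISG15 and TOX3 lie off it. The axes share the PEF array, which by itself draws points to the diagonal. The difference between the lines also enters the limma SE, so features off the diagonal are harder to call.

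Of the 12 genes furthest below PEF, 5 are known from connective tissue: ASPN, PRRX1, THBS2, COL15A1 and MGP. ASPN, which encodes the small matrix proteoglycan asporin, had a value of 8.74 in PEF, -0.10 in iPF4-2 and -0.66 in iPSCs-w. It fell by 9.13 ± 0.39 (SE; limma adjusted p = 0.0218), and all 4 iPS lines lay at or below 0.42. PRRX1, a homeobox factor of limb and facial mesenchyme, stood at 3.02 in PEF, -3.77 in iPF4-2 and -4.99 in iPSCs-w. It fell by 7.39 ± 0.56 (adjusted p = 0.0218), and PS24 and 30AC5, at -0.89 and -0.62, lay between PEF and the 2 lines.

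THBS2, the matricellular protein thrombospondin 2, was the most even of these genes, at 5.59 in PEF, 0.05 in iPF4-2 and -0.07 in iPSCs-w, and fell by 5.60 ± 0.30 (adjusted p = 0.0218). COL15A1, a basement membrane collagen, read 6.32, -0.59 and -1.68 in the same order and fell by 7.45 ± 0.72 (adjusted p = 0.0288). MGP, an inhibitor of matrix calcification, read 6.23, -0.12 and -1.18 and fell by 6.88 ± 0.73 (adjusted p = 0.0339). In each of these genes PEF was far above both lines. The lines were close to each other in THBS2, while in COL15A1 and MGP iPSCs-w lay about 1 log2 unit below iPF4-2.

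The other 7 of the 12 lowest genes have varied roles. PTX3, a secreted pattern recognition protein of innate immunity, fell by 6.40 ± 0.78 (adjusted p = 0.0398). DDAH1, which degrades the nitric oxide synthase inhibitor dimethylarginine, fell by 6.04 ± 0.63 (adjusted p = 0.0333), and VGLL3, a cofactor of TEAD transcription factors, by 5.77 ± 0.61 (adjusted p = 0.0338). SPP1, the secreted phosphoprotein osteopontin, fell by 5.99 ± 0.68 (adjusted p = 0.036). CLDN11, CXCL8 and CCL2 had differences of -6.81, -6.52 and -6.50 from PEF but did not pass the test (adjusted p = 0.135, 0.144 and 0.0775). In CLDN11 and CXCL8 the SSEA1-carrying lines were far apart, at -2.60 and 1.57 and at 0.07 and 4.27, and that spread enters the test.

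The 12 genes furthest above PEF were of mixed function. HSD17B2, an enzyme that inactivates estradiol and testosterone, read -0.75 in PEF, 5.68 in iPF4-2 and 6.15 in iPSCs-w, and rose by 6.66 ± 0.54 (adjusted p = 0.0218). AIF1, a calcium-binding, actin-bundling protein best known from macrophages, read -1.65, 3.87 and 3.74 and rose by 5.45 ± 0.31 (adjusted p = 0.0218). NUP210, a membrane protein of the nuclear pore, read -4.59, 0.39 and 0.02 and rose by 4.79 ± 0.36 (adjusted p = 0.0218). PEF lay apart from both lines in all 3 genes, but for NUP210 it also lay below PS24 and 30AC5 (0.16 and -0.26), while for HSD17B2 and AIF1 these lines were near PEF.

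HSPA2, an Hsp70 family chaperone known from the testis, rose by 5.49 ± 0.74 (adjusted p = 0.0471), from -3.0 in PEF to 3.24 in iPF4-2 and 1.72 in iPSCs-w. GPD1L, a glycerol-3-phosphate dehydrogenase, rose by 4.33 ± 0.40 (adjusted p = 0.0268) and MFSD6 by 4.39 ± 0.36 (adjusted p = 0.0218). ALPL, the tissue-nonspecific alkaline phosphatase whose activity is used to stain pluripotent colonies, read -2.46 in PEF, 2.42 in iPF4-2 and 3.06 in iPSCs-w. Its difference of 5.21 ± 0.74 narrowly missed the threshold (adjusted p = 0.0519). The Wnt receptor FZD5, the orphan receptor GPR160 and the ubiquitin ligase RNF128 were 4.14, 5.04 and 4.48 above PEF and did not pass either (adjusted p = 0.12, 0.0971 and 0.0643).

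**Figure D2:**
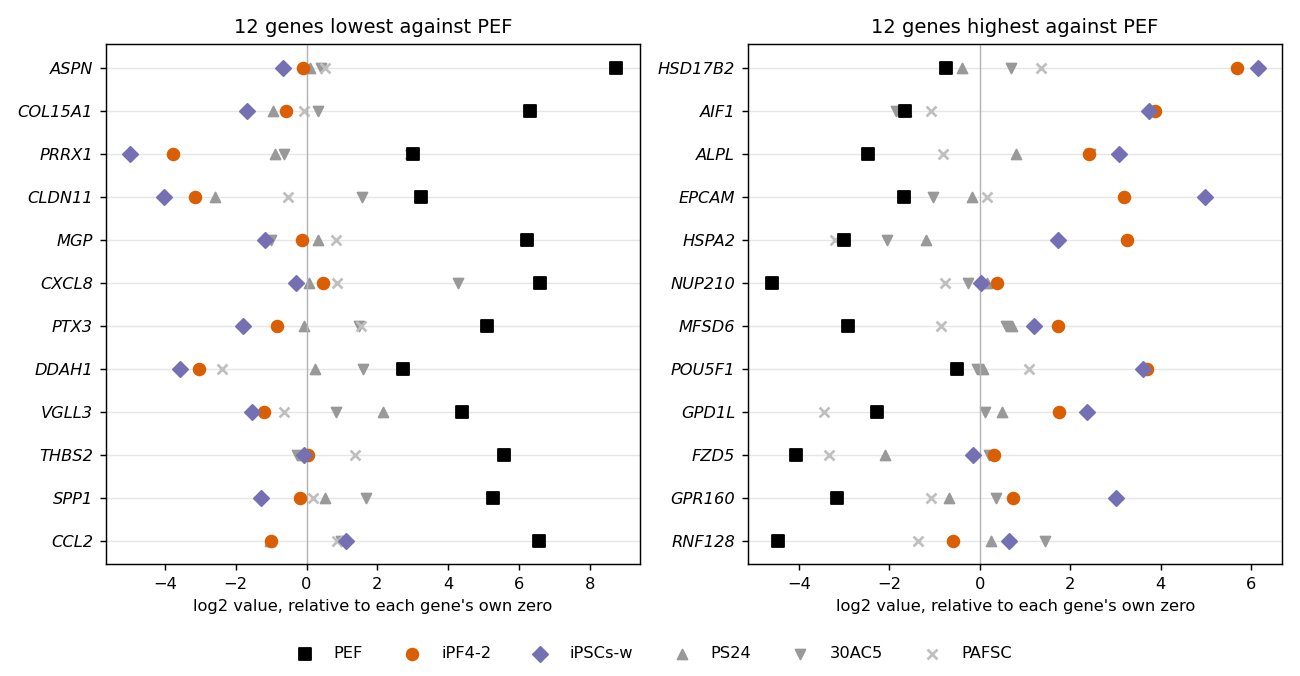
Log2 values on all 6 arrays for the 12 genes whose smaller difference from PEF was lowest (left) and highest (right); black squares are PEF, orange circles iPF4-2, purple diamonds iPSCs-w and grey symbols the other 3 arrays. PEF stands at one end of each row on the left, at 8.74 for ASPN, while in the right panel HSD17B2, AIF1 and POU5F1 are high in iPF4-2 and iPSCs-w alone.

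To set these genes in context, 34 lists of genes with a known role were read against PEF, 403 of whose 669 genes were measured. Over all features the median difference of the 2 lines from PEF was 0.12 log2 units, so a list median near this value does not stand out. Of all features, 46.0% were higher in both lines and 30.7% lower, and by at least 1 log2 unit 6.38% and 8.24%. Limma called 0.407% higher and 1.24% lower. The counts of list members below are to be read beside these shares. The matrix, fibroblast and contractile lists and the reprogramming factors lay furthest below PEF, and the lists of core pluripotency factors, germ cell genes, nucleotide synthesis and epithelial genes lay furthest above it.

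**Figure D3:**
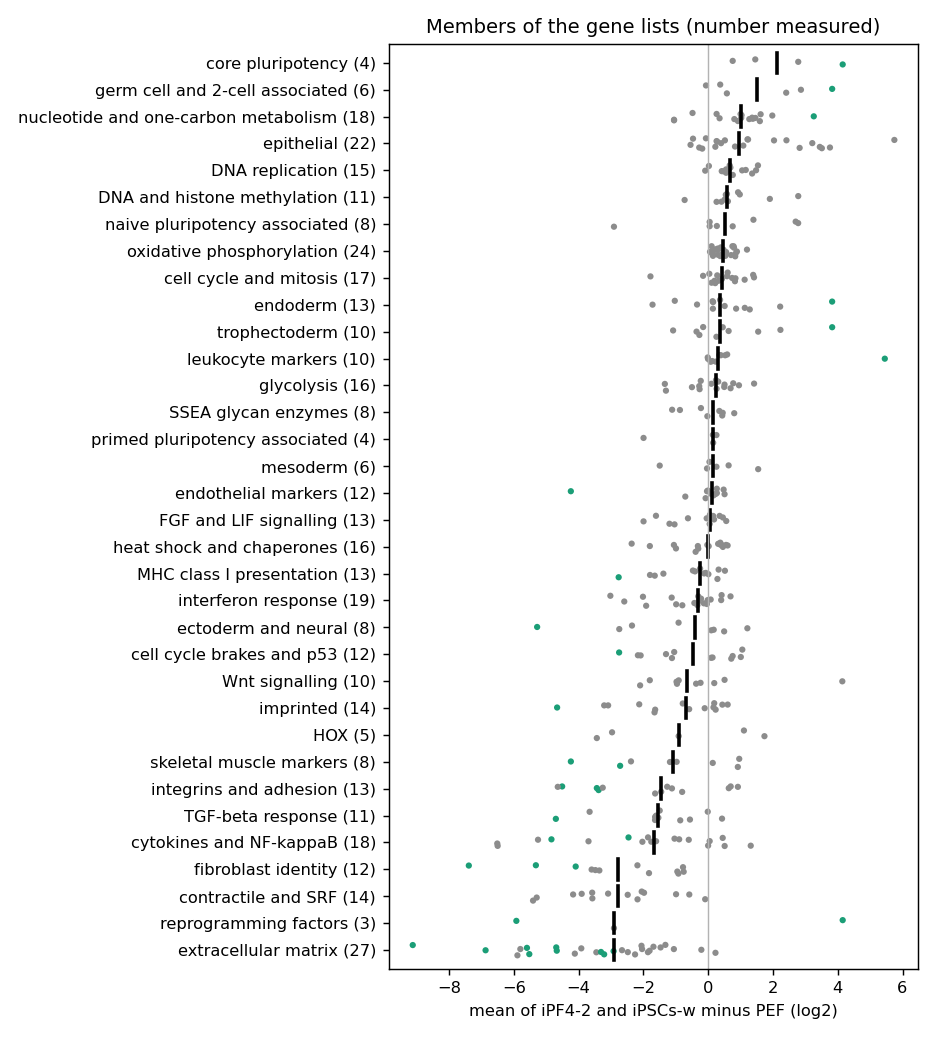
Mean difference of iPF4-2 and iPSCs-w from PEF (log2) for each measured member of 34 gene lists, one dot per gene, green where limma called it, with the list median as a black bar. The medians run from -2.92 in the extracellular matrix list to 2.12 for core pluripotency, and most members were not called in any list but the reprogramming factors, where 2 of 3 were.

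All 12 measured fibroblast identity genes were lower in both lines, beside 30.7% of all features. In 8 of them the difference was at least 1 log2 unit in both, and the median difference was -2.77. PRRX1 is among them, and 2 other members fell. S100A4, a calcium-binding protein of motile mesenchymal cells, read 5.23 in PEF, 0.58 in iPF4-2 and -0.76 in iPSCs-w and fell by 5.32 ± 0.64 (adjusted p = 0.0395). THY1, a surface glycoprotein used to sort fibroblasts, read 3.73, 0.01 and -0.74 and fell by 4.09 ± 0.44 (adjusted p = 0.0345). The mean of the list was 1.76 in PEF and -0.82 and -1.45 in the lines, and PEF exceeded all 4 iPS lines in 11 of 12 members. PDGFRB, the platelet-derived growth factor receptor beta, depends on the probe set: its 2 probe sets differed from PEF by -7.11 and 0.14. A smaller share of fibroblasts and less RNA per cell cannot be told apart in bulk RNA.

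Genes of the extracellular matrix were lower in both lines for 25 of 27 members, beside 30.7% of all features. Of the members, 21 were lower by at least 1 log2 unit and 9 fell, and the list median was -2.92. These 9 span the matrix: the microfibril-linked collagen VI chains COL6A2 and COL6A3, the proteoglycans ASPN and BGN, the elastic fibre genes LOXL1 and MFAP2, and THBS2, MGP and TIMP2. LOXL1, which crosslinks elastin, read 3.03 in PEF, -2.02 in iPF4-2 and -2.96 in iPSCs-w and fell by 5.53 ± 0.47 (adjusted p = 0.0219). The metalloproteinase inhibitor TIMP2 fell by 3.31 ± 0.40 (adjusted p = 0.0394), and biglycan, BGN, fell by 4.69 ± 0.59 (adjusted p = 0.042). COL3A1 was the single member higher in both lines, by 0.22 ± 0.40 (adjusted p = 0.846). Some members split between the lines without a call: LUM, the proteoglycan lumican, read 7.34 in PEF, 3.77 in iPF4-2 and -0.69 in iPSCs-w, and TNC, tenascin C, read 5.80, 1.36 and -1.55. The 2 genes were picked out after their values were seen.

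Contractile genes, many of them targets of the serum response factor, were lower in both lines for 13 of 14 members, 11 by at least 1 log2 unit, with a median of -2.79, yet limma called none of them. TAGLN, the actin-binding transgelin, read 2.30 in PEF, -2.17 in iPF4-2 and -4.05 in iPSCs-w (-5.41 ± 1.37, adjusted p = 0.141). CNN1, calponin, read 2.12, -1.68 and -2.42 (-4.17 ± 0.66, adjusted p = 0.0619). Tropomyosin 2, TPM2, and the smooth muscle actin ACTG2 were at -3.58 ± 0.64 and -3.91 ± 0.93 against PEF (adjusted p = 0.0755 and 0.126). The iPS lines differed among themselves in these genes: TAGLN was -3.97 in PS24 and -1.08 in 30AC5.

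Of 13 integrins and adhesion genes, 9 were at least 1 log2 unit lower in both lines, beside 8.24% of all features. The median was -1.45, and 3 fell. ITGA8, a partner of integrin beta 1 on mesenchymal cells, read 3.67 in PEF, -0.76 in iPF4-2 and -0.92 in iPSCs-w and fell by 4.51 ± 0.34 (adjusted p = 0.0218). ITGB3, a subunit of the vitronectin receptor, fell by 3.39 ± 0.37 (adjusted p = 0.035). CD151, a tetraspanin that binds laminin receptors, fell by 3.44 ± 0.41 (adjusted p = 0.0395) from 2.21 to -1.53 and -0.93.

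Genes of the TGF-beta response were lower in both lines for 9 of 11 members, beside 30.7% of all features. In 4 of them the difference was at least 1 log2 unit in both, and the median was -1.54. CYR61, a matricellular protein induced by TGF-beta and by YAP, read 2.84 in PEF, -2.11 in iPF4-2 and -1.61 in iPSCs-w and, alone among the members, fell by 4.71 ± 0.47 (adjusted p = 0.0309). ID3, an inhibitor of helix-loop-helix factors, was at -3.66 ± 0.60 against PEF (adjusted p = 0.0638). Among 10 Wnt genes the median was -0.64 and none was called against PEF. The secreted inhibitors DKK1 and DKK3 were at -1.80 ± 0.48 and -2.10 ± 0.59 (adjusted p = 0.151 and 0.168), and the receptor FZD5 was at 4.14 ± 0.96 (adjusted p = 0.12). Outside the list, DKK2 fell by 3.53 ± 0.41 (adjusted p = 0.0369), and its 2 probe sets differed from PEF by -6.41 and -0.64. DKK2 was picked out after its value was seen.

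Epithelial genes lay on the other side of PEF. Of 22 measured, 16 were higher in both lines, 9 by at least 1 log2 unit, and 3 were lower, with a median of 0.95 and no call. EPCAM, the epithelial cell adhesion molecule, read -1.67 in PEF, 3.18 in iPF4-2 and 4.98 in iPSCs-w (5.75 ± 0.83, adjusted p = 0.0527). CDH1, E-cadherin, read -1.34, 1.46 and 2.75 (3.45 ± 0.59, adjusted p = 0.0682), and its 2 probe sets differed from PEF by 0.85 and 6.04. ST14, the membrane protease matriptase, read -1.30, 1.25 and 2.58 (3.21 ± 0.61, adjusted p = 0.0847), and KRT18, a keratin of simple epithelia, -0.68, 3.34 and 2.81 (3.76 ± 1.24, adjusted p = 0.222). PEF lay below both lines in all 4 genes, and the mean over the list was -0.52 in PEF, 0.72 in iPF4-2 and 1.10 in iPSCs-w. Outside the list, S100A14, a calcium-binding protein of epithelia, rose by 3.20 ± 0.39 (adjusted p = 0.0398), and CXADR, a tight junction protein and virus receptor, rose by 2.97 ± 0.30 (adjusted p = 0.0309). CXADR was picked out after its value was seen.

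All 4 measured core pluripotency genes were higher in both lines, 3 by at least 1 log2 unit, with a median of 2.12. POU5F1 read -0.50 in PEF, 3.68 in iPF4-2 and 3.61 in iPSCs-w and rose by 4.15 ± 0.30 (adjusted p = 0.0218). The lines were within 0.07 log2 units of each other in this gene. DNMT3B, a de novo DNA methyltransferase of the early embryo, read -0.75, 1.18 and 2.88 (2.78 ± 0.72, adjusted p = 0.146). TERF1, a telomere-binding protein, and ZFP42, also known as REX1, lay 1.45 ± 0.46 and 0.76 ± 0.32 above PEF (adjusted p = 0.207 and 0.321). NANOG and SOX2 were not analysed here.

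Among the 3 measured reprogramming factors the directions were split. POU5F1 rose, while MYC, the growth-promoting transcription factor, read 5.55 in PEF, 0.29 in iPF4-2 and -1.04 in iPSCs-w and fell by 5.93 ± 0.69 (adjusted p = 0.0369). KLF4 read 2.12, -0.79 and -0.80 (-2.91 ± 0.93, adjusted p = 0.213). MYC and KLF4 were lower in all 4 iPS lines than in PEF. A pig probe set need not detect a factor supplied from another species, and the labels name no transgene.

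Of 8 genes linked to the naive state, the pluripotency of the preimplantation embryo, 5 were higher in both lines, beside 46.0% of all features. In 2 of the 8, both lines lay at least 1 log2 unit above PEF. KLF4 alone was lower in both, and the list had a median of 0.51 and no call. DPPA5 read -0.80 in PEF, 2.31 in iPF4-2 and 1.64 in iPSCs-w (2.78 ± 0.39, adjusted p = 0.0507), and the nuclear receptor NR0B1 read -1.11, 1.26 and 1.93 (2.70 ± 0.54, adjusted p = 0.0939). NR5A2, a nuclear receptor that acts on POU5F1, lay 1.40 ± 0.53 above PEF (adjusted p = 0.276). In 4 genes linked to the primed state the median was 0.15, and the growth factor FGF2 was 0.15 ± 0.58 above PEF (adjusted p = 0.93). DUSP6, a phosphatase induced by FGF signalling, lay below PEF in both lines (-2.0 ± 0.56, adjusted p = 0.169). Over 13 genes of FGF and LIF signalling the median was 0.04 (-0.24 in iPF4-2 and 0.15 in iPSCs-w), with 0 calls; LIF and STAT3 were at -1.04 ± 0.30 and -1.20 ± 0.65 against PEF (adjusted p = 0.171 and 0.437).

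Among the clearest increases were GATA6 and TFAP2C, factors of extraembryonic or germ cell fate. GATA6, a factor of primitive endoderm, read -0.32 in PEF, 3.45 in iPF4-2 and 3.57 in iPSCs-w and rose by 3.83 ± 0.30 (adjusted p = 0.0218). TFAP2C, a factor of trophectoderm and primordial germ cells, read -1.06, 2.89 and 2.65 and rose by 3.83 ± 0.31 (adjusted p = 0.0218). Each was the only gene called in its lists. Over 13 endoderm genes the median was 0.36 with 1 call, GATA6. Of the 13, 10 were higher in both lines, beside 46.0% of all features, 2 were lower and 1 was split. In 3 of them both lines lay at least 1 log2 unit above PEF. FOXA1 and CXCR4 were at 2.22 ± 0.62 and 1.28 ± 0.54 (adjusted p = 0.166 and 0.319). The endoderm factor FOXA2 differed from PEF by 0.14 ± 0.32 (adjusted p = 0.881). Over 10 trophectoderm genes the median was 0.35 (0.43 in iPF4-2 and 0.05 in iPSCs-w) with 1 call, TFAP2C. GATA2 was at 1.54 ± 1.10 and GATA3 at -1.09 ± 0.81 (adjusted p = 0.559 and 0.581). The 4 probe sets of GATA3 differed from PEF by -1.93 to 0.40. Of 6 germ cell and 2-cell genes, 5 were higher in both lines, with a median of 1.49 that was 0.91 in iPF4-2 and 2.25 in iPSCs-w, and with the call of TFAP2C, and TAF4B, a germ cell subunit of the transcription factor TFIID, was at 2.86 ± 0.70 (adjusted p = 0.134).

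**Figure D4:**
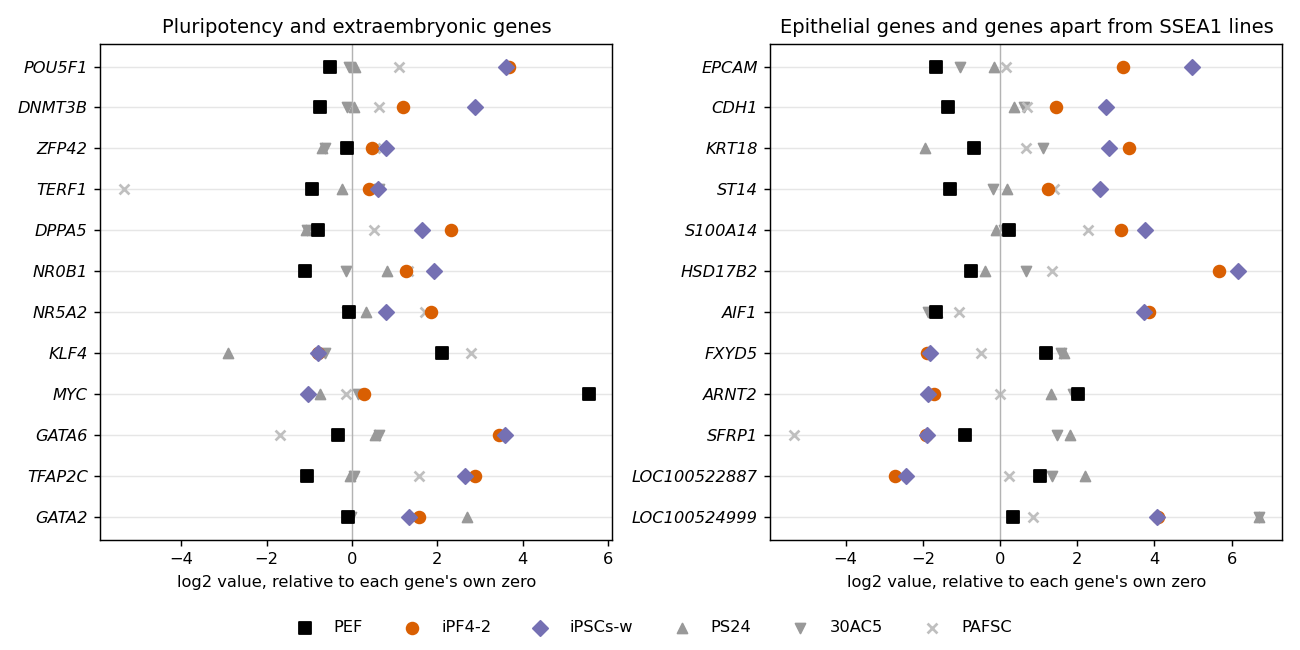
Log2 values on all 6 arrays for pluripotency and extraembryonic genes (left) and for epithelial genes and genes that differ from the SSEA1-carrying lines (right), with symbols as named in the key. POU5F1 is at 3.68 and 3.61 in iPF4-2 and iPSCs-w and near 0 in PS24 and 30AC5, while MYC stands at 5.55 in PEF alone.

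The other germ layers showed no common direction. Over 6 mesoderm genes the median was 0.15 with 0 calls. Over 8 ectoderm and neural genes it was -0.41 (0.28 in iPF4-2 and -0.54 in iPSCs-w), and the single call was CRABP2, a retinoic acid carrier, which fell by 5.28 ± 0.57 (adjusted p = 0.0345) from 2.91 in PEF to -1.75 in iPF4-2 and -2.99 in iPSCs-w. Of 5 HOX genes, which give positional identity along the body, HOXA3 and HOXA9 were at -3.44 ± 0.86 and -2.97 ± 1.01 against PEF and HOXD8 and HOXD10 at 1.74 ± 0.58 and 1.10 ± 0.47, none of them called (adjusted p = 0.138, 0.233, 0.228 and 0.324). Over 14 imprinted genes, expressed from 1 parental copy, 8 were lower in both lines, beside 30.7% of all features, 2 higher and 4 split. Their median was -0.69 (-0.43 in iPF4-2, -0.90 in iPSCs-w), but 0.17 without the features of lowest mean. NNAT, neuronatin, read 3.19 in PEF, -2.11 in iPF4-2 and -0.84 in iPSCs-w and fell by 4.67 ± 0.61 (adjusted p = 0.0449), and PHLDA2, a brake on placental growth, was at -3.21 ± 0.54 against PEF (adjusted p = 0.0668).

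Cell division genes had no calls and small differences. Of 15 DNA replication genes, 13 were higher in both lines, beside 46.0% of all features, with a median of 0.66, and ORC1, a subunit of the origin recognition complex, read -1.41 in PEF, 0.01 in iPF4-2 and 0.13 in iPSCs-w (1.48 ± 0.30, adjusted p = 0.0955). Of 17 cell cycle and mitosis genes, 12 were higher in both, 1 was lower and 4 were split, with a median of 0.42 beside 0.12 over all features, and the mitotic kinase AURKA was at 1.41 ± 0.51 (adjusted p = 0.252). Genes of cell cycle brakes and the p53 response had no common direction: 5 of 12 were higher in both lines, 6 lower and 1 split, with a median of -0.48 (-0.30 in iPF4-2 and -0.52 in iPSCs-w). GADD45B, a stress-response gene, read 2.29, -0.67 and -0.27 and fell by 2.75 ± 0.35 (adjusted p = 0.0432), and CDKN1A, the cyclin kinase inhibitor p21, was at -2.09 ± 0.42 (adjusted p = 0.096). The p53 targets SESN1, BTG2 and BAX were at 1.05 ± 0.58, 1.01 ± 0.81 and 0.75 ± 0.63 (adjusted p = 0.44, 0.61 and 0.624).

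Enzymes of nucleotide synthesis and one-carbon metabolism were higher in both lines for 15 of 18 members, 8 by at least 1 log2 unit, with a median of 1.02. PPAT, which catalyses the first committed step of purine synthesis, read -2.45 in PEF, 0.76 in iPF4-2 and 0.86 in iPSCs-w and rose by 3.26 ± 0.30 (adjusted p = 0.0268). PAICS and ATIC, later enzymes of the same pathway, lay 1.98 ± 0.30 and 1.59 ± 0.29 above PEF (adjusted p = 0.0556 and 0.0802). Of 24 subunits of oxidative phosphorylation, 21 were higher in both lines, beside 46.0% of all features, and 0 lower. None was higher by 1 log2 unit in both, and the median was 0.45. In 16 glycolytic genes the median was 0.25: the glucose carrier SLC2A3 lay 1.42 ± 0.67 above PEF and SLC2A1 was at -1.34 ± 0.76 (adjusted p = 0.371 and 0.453). Over 11 DNA and histone methylation genes, 10 were higher in both lines, beside 46.0% of all features, with a median of 0.58. JARID2, a partner of Polycomb complex PRC2, was at 1.90 ± 0.36 (adjusted p = 0.0834). Over 16 heat shock genes the median was -0.01 with 0 calls, although the small heat shock genes CRYAB and HSPB1 were at -2.37 ± 0.38 and -1.80 ± 0.47 (adjusted p = 0.0638 and 0.144).

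Of 18 cytokine and NF-kappaB genes, 13 were lower in both, 9 by at least 1 log2 unit, with a median of -1.68 that was -1.80 in iPF4-2 and -1.01 in iPSCs-w. VCAM1, an adhesion molecule for leukocytes, read 4.39 in PEF, -0.26 in iPF4-2 and -0.65 in iPSCs-w and fell by 4.84 ± 0.42 (adjusted p = 0.0223). NFKBIA, the inhibitor that NF-kappaB itself induces, read 2.30, -0.21 and -0.12 and fell by 2.46 ± 0.31 (adjusted p = 0.043). The chemokine CXCL2 read 5.09, -0.35 and 0.02 (-5.26 ± 0.78, adjusted p = 0.0541), whereas PS24 and 30AC5 read 7.06 and 5.24.

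Of 13 MHC class I presentation genes, 8 were lower in both lines, beside 30.7% of all features, with a median of -0.25. TAPBP, tapasin, which loads peptide onto class I molecules, read 0.75 in PEF, -1.83 in iPF4-2 and -2.21 in iPSCs-w and fell by 2.77 ± 0.34 (adjusted p = 0.0405). The class I genes SLA-2, SLA-3 and SLA-7 were at -1.65 ± 0.56, -1.80 ± 0.39 and -1.39 ± 0.39 (adjusted p = 0.232, 0.109 and 0.167). They are near-identical copies whose probe sets may share signal.

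Interferon response genes divided the lines: 10 of 19 lay on opposite sides of PEF, against 23.3% of all features. IFIT3, an interferon-induced antiviral protein, read 2.64 in PEF, -0.96 in iPF4-2 and 4.26 in iPSCs-w, and ISG15, a ubiquitin-like modifier, read 0.60, -0.86 and 2.86. IRF1, a factor that switches on such genes, was low in both at -1.28 and -0.49 against 2.14 in PEF (-3.02 ± 0.46, adjusted p = 0.0566). Outside this list, TOX3 was high in iPF4-2 (4.17) and not in iPSCs-w (-0.67) or PEF (0.91), and PALMD was low in iPSCs-w (-4.60) against 0.69 in iPF4-2 and -0.69 in PEF. Means over the lines say little for such genes.

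The 8 measured enzymes of the SSEA glycans showed no difference past the threshold, with a median of 0.16 (-0.31 in iPF4-2 and 0.28 in iPSCs-w). The largest differences were -1.12 ± 0.45 for ST3GAL1, a sialyltransferase, and -0.87 ± 0.53 for B3GNT5, which starts the lacto-series chain that can carry SSEA1 (adjusted p = 0.3 and 0.48). ST3GAL1 depends on the probe set: its 4 probe sets differed from PEF by -2.69 to -0.01. B3GALNT1, the globoside synthase that acts on the way to SSEA3 and SSEA4, lay 0.80 ± 0.31 above PEF (adjusted p = 0.285). Its 2 probe sets differed from PEF by 0.22 and 1.38. ST3GAL2, which sialylates the SSEA3 glycan to SSEA4, was 0.45 ± 0.29 above (adjusted p = 0.521). FUT1, B4GALT1 and B4GALT5 lay on opposite sides of PEF in the 2 lines. A p that misses the threshold does not show that these enzymes are alike in PEF and the lines.

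Markers of other cell types were read for what else the samples could hold. Leukocyte markers other than AIF1 lay between -0.49 and 0.55 in all 3 samples: PTPRC, the pan-leukocyte antigen CD45, read -0.04 in PEF, 0.18 in iPF4-2 and -0.02 in iPSCs-w, and the macrophage gene CD163 read 0.01, 0.05 and -0.06. Values near 0 here mean that the samples differed little, since the zero of a probe set is no absolute level. Over 10 leukocyte markers the mean was -0.30 in PEF, 0.58 in iPF4-2 and 0.36 in iPSCs-w, with AIF1 as the single call. Over 12 endothelial markers the means were 0.17, -0.01 and -0.18, and the single call was ERG, an ETS factor of endothelium, which fell by 4.24 ± 0.36 (adjusted p = 0.0218) from 3.62 in PEF. The endothelial genes VWF and CDH5 read -0.24 and -0.34 in PEF.

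Of 8 skeletal muscle markers, 5 were lower in both lines than in PEF, beside 30.7% of all features, 2 were higher and 1 was split, and 2 fell. Their mean was 1.14 in PEF, -0.19 in iPF4-2 and 0.09 in iPSCs-w, and MYF5 and MYL1 carry much of it. MYF5, a factor that commits cells to the muscle lineage, read 2.50 in PEF and -0.22 in both lines and fell by 2.72 ± 0.31 (adjusted p = 0.0356). MYL1, a myosin light chain of fast muscle, read 4.01, 0.08 and -0.54 and fell by 4.24 ± 0.40 (adjusted p = 0.0275). MYOD1 and DES read 0.97 and 1.31 in PEF and close to 0 in the lines, while the muscle creatine kinase CKM read -0.14 in PEF. The part of these markers in the other differences from PEF was not tested.

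The remaining genes with the smallest p below PEF included several receptors and secreted proteins. SCG2, a granin of secretory vesicles, fell by 5.28 ± 0.33, DPT, the matrix protein dermatopontin, fell by 4.61 ± 0.32, and AGTR1, the angiotensin II receptor, fell by 4.16 ± 0.30 (adjusted p = 0.0218 for each). SGCD, a sarcoglycan, fell by 3.87 ± 0.33, SRPX2 fell by 3.55 ± 0.30 and TMEM26 fell by 5.79 ± 0.44 (adjusted p = 0.0218 for each). Above PEF they included the tetraspanin TSPAN33 and APOA2, an apolipoprotein of high-density lipoprotein, which rose by 3.99 ± 0.33 and 3.13 ± 0.31 (adjusted p = 0.0218 and 0.0309).

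To see which differences from PEF also set these lines apart from the SSEA1-carrying lines, the same model compared iPF4-2 and iPSCs-w with PS24 and 30AC5. It called 18 features higher (0.0872%) and 31 lower (0.150%), 6 and 7 of them genes with a symbol, and 2337 had an unadjusted p under 0.05. With any 1 of the 4 lines left out, the calls came to 0. The 6 genes above the SSEA1-carrying lines were AIF1, HSD17B2, POU5F1, S100A14, GATA6 and TFAP2C, each of which also rose against PEF. POU5F1 was 3.65 ± 0.24 higher than in PS24 and 30AC5 (0.07 and -0.07; adjusted p = 0.045), and GATA6 was 2.93 ± 0.24 higher (adjusted p = 0.0477). In all 6 genes PS24 and 30AC5 lay nearer to PEF than to the 2 lines.

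The 7 genes with a symbol below the SSEA1-carrying lines did not share a direction against PEF. PLA2G7 and SLC16A3 were at -4.57 ± 0.35 and -3.85 ± 0.35 against those lines (limma adjusted p = 0.0456 and 0.048). Against PEF they were at 0.70 ± 0.43 and 0.03 ± 0.43 and did not pass (adjusted p = 0.494 and 0.985). FXYD5, a regulator of the sodium pump, read 1.19 in PEF, 1.66 and 1.57 in PS24 and 30AC5, and -1.89 and -1.82 in iPF4-2 and iPSCs-w: it fell against PEF by 3.04 ± 0.29 (adjusted p = 0.0288) and lay below the SSEA1-carrying lines at -3.47 ± 0.24 (adjusted p = 0.045). ARNT2, a partner of PAS-domain transcription factors, was also lower in the 2 lines than in PEF and in the SSEA1-carrying lines. Its differences were -3.81 ± 0.37 against PEF and -3.39 ± 0.30 against those lines (adjusted p = 0.0288 and 0.0477). SFRP1, a secreted Wnt inhibitor, read -0.92 in PEF, 1.83 and 1.47 in PS24 and 30AC5, and -1.91 and -1.89 in the 2 lines, and of its 2 differences the one from the SSEA1-carrying lines passed (-3.54 ± 0.26, adjusted p = 0.045). LOC100524999 read 0.34 in PEF, 4.10 and 4.07 in the 2 lines and 6.71 and 6.70 in PS24 and 30AC5, and was the single gene with a symbol that rose against PEF yet lay below the SSEA1-carrying lines (-2.62 ± 0.24, adjusted p = 0.048).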

How the data were processed

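The authors deposited log2 values of 24123 probe sets for the 6 arrays, none missing. How the values were background-corrected, normalized and centred is not given in the sources used here, and the log base was taken from the range of the values. The baseline was not the mean or median of these arrays. The 124 AFFX and 64 RPTR probe sets were left out, which left 23935. The platform annotation gave 1 symbol to 10069, several to 198 and none to 13668. Through gene IDs, 9961 were found in the RefSeq gene table.

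The tests used limma 3.58.1 in R 4.3.3 (lmFit, eBayes, two-sided p adjusted by Benjamini-Hochberg over 20631 features) on 5 arrays in 3 groups, PEF, SSEA1-carrying and SSEA3/SSEA4-only lines, with 2 residual degrees of freedom. No line has a repeat culture, so p-values measure only the spread between unlike lines, from which technical spread cannot be told apart. PS24 and 30AC5 differ in their antigen labels, and their 5′ minus 3′ control values were -1.90 and 0.19. The spread between PS24 and 30AC5 enters every SE and p. The number of arrays limits the precision. Simulated data were used to test the scripts.

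Genes were named by rule: the 12 highest and lowest by the smaller of the 2 differences from PEF, up to 12 limma calls per direction by p, 4 per list, all of 3 short lists, and 6 on opposite sides. Also named were the 6 per direction with the smallest p against the SSEA1-carrying lines, among genes at least 1 log2 unit from PEF in both lines. A part is printed, and other names, chosen after their values were seen, serve as examples. The comparison and the lists were chosen with earlier results of these data known. Alternatives were quantile normalization, median centring, other probe set rules, a filter, other variance settings, other thresholds and leaving out each line.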

Additional observations from a re-analysis of the deposited data

Results flagged for a closer look

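For 11 of the genes named, iPF4-2 and iPSCs-w differed from the SSEA1-carrying lines by a limma test of that difference (adjusted p under 0.05), so the 2 classes of lines differed from PEF by unlike amounts in these genes. Most of the 11 met the naming rule of smallest p in this same test, so their number is no result. Over all features the test called 18 higher (0.0872%) and 31 lower (0.150%). The differences on the log2 scale were 5.77 for HSD17B2, 5.55 for AIF1, 3.65 for POU5F1, 3.44 for S100A14, 2.93 for GATA6 and 2.77 for TFAP2C. They were -2.62 for LOC100524999, -3.39 for ARNT2, -3.47 for FXYD5, -3.54 for SFRP1 and -4.35 for LOC100522887.

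Data outside the comparison also held a signal. Of 64 reporter probe sets, which the array carries for sequences used as laboratory tags or markers, 5 were at least 1 log2 unit above PEF in iPF4-2, by 2.43 to 5.04, and 0 were in iPSCs-w. These 5 read 2.25 to 3.43 in iPF4-2, -1.85 to -0.18 in PEF and -1.71 to 0.73 in PS24 and 30AC5. In PAFSC they read 0.46 to 2.29, where the median of all reporter probe sets was 2.03. No group held enough arrays for a search for single outlying samples.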

How the results depend on the processing

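No paired analysis was possible because PEF is 1 array and the origin of each line is not stated. Against 84 features called above PEF and 255 below, the counts were 0 and 0 after quantile normalization, 0 and 0 with PEF and the 2 lines alone, and 22 and 65 when tested against a log2 change of 1 (treat). Leaving out each iPS line gave 0 to 0 in both directions. Other settings gave 78 to 102 above and 251 to 286 below. Features with both lines at least 1 unit above or below PEF (1317 and 1699) came to 676 and 1052 without the lowest 40% by mean, 270 and 670 at 2 units, and 3381 and 3080 at 0.5 units; with 1 line in place of 2, they ranged from 1916 to 2573 above and from 2308 to 2442 below. Against the SSEA1-carrying lines (18 above and 31 below; alternatives chosen after seeing the data) the counts were 7 and 11 after median centring, 1 and 3 with every probe set alone, 3 and 1 with a variance trend, 0 and 1 with treat, and 0 to 0 without each line. Of 50 named genes called, 50 remained after centring, 48 with the highest-mean probe set, 49 with robust variance, 42 with a variance trend, 39 with the filter (which left out the other 11) and 24 with treat; 0 remained after quantile normalization, with any iPS line left out, or with PEF and the 2 lines alone. Of 18 lists with a median past 0.5 in size, 18 kept its sign under the other settings and 16 with the filter, where the imprinted list turned to 0.17 and the HOX list from -0.91 to 1.42. Over all settings the medians ran from 0.67 to 2.64 for germ cell genes, -2.03 to -1.01 for cytokine genes, -1.05 to -0.30 for cell cycle brakes and 0.20 to 0.58 for cell cycle genes. Fewer arrays leave 1 residual degree of freedom; the cause of the other changes was not tested.

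With the highest-mean probe set the difference from PEF turned to -0.022 for FGF2, 0.35 for GPX7 and 0.14 for PDGFRB. Leaving out a line moved genes with unlike lines across 0: B4GALT1 from -0.57 to 0.12, FUT1 from -0.62 to 0.57, B4GALT5 from -0.044 to 0.91, IFIT3 from -3.60 to 1.62, ISG15 from -1.46 to 2.26, TOX3 from -1.57 to 3.27, TRAF3IP2 from -1.55 to 1.40, PALMD from -3.91 to 1.39 and STAMBPL1 from -1.39 to 1.93. No promoter sequences were used, so the planned motif count was not run.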

Other observations

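Among the genes that fell, 5 known from striated muscle were picked out after their values were seen, and they say nothing of muscle genes as a group. NEB, the thin filament ruler nebulin, read 3.40 in PEF, 0.06 in iPF4-2 and -0.06 in iPSCs-w and fell by 3.40 ± 0.30 (limma adjusted p = 0.0228). KLHL41, a nebulin-binding protein, read 3.16, -1.04 and -0.57 and fell by 3.96 ± 0.39 (adjusted p = 0.0296). The giant spring protein TTN, the Z-disc protein MYOT and the sarcomere-associated ligase TRIM55 fell and were at -2.48 ± 0.30, -2.62 ± 0.31 and -2.29 ± 0.31 against PEF (adjusted p = 0.0398, 0.0393 and 0.0471). In all 5 genes PEF stood above the 4 iPS lines.

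Other called genes were picked out in the same way. The tumour necrosis factor receptors TNFRSF1A and TNFRSF1B were at -2.56 ± 0.31 and -2.95 ± 0.30 and fell (adjusted p = 0.0398 and 0.0309), and the binding proteins of insulin-like growth factors IGFBP5 and IGFBP6 were at -3.13 ± 0.35 and -3.05 ± 0.42 and fell (adjusted p = 0.0356 and 0.0492). Among genes that rose, PPIF, a mitochondrial cyclophilin, was at 3.21 ± 0.42 (adjusted p = 0.0442), and LSR, a lipoprotein receptor of cell junctions, at 3.04 ± 0.40 (adjusted p = 0.0442).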
